A study of Mus musculus with 2 samples.

Results

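Distal Foxp2 peaks are the binding sites called far from any annotated gene in a mouse kidney tubule cell line. They were chosen by position alone: the summit, the base of highest signal in a peak, lay outside every RefSeq gene of GRCm38.p6 and more than 10 kb from every gene start and end. Of 944 peaks on 20 chromosomes (1 to 19 and X), 228 met this rule (24.2%, 95% Wilson interval 21.5 to 27.0). The gene table held 49554 genes, of which 21631 were protein-coding, and it counts long noncoding RNAs, pseudogenes and predicted models as genes. Peaks that lie among such transcripts, but far from coding genes, are therefore not among the 228.

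The cells were C1.1, a murine tubular epithelial line, stably selected after transfection with a plasmid for CRISPR activation of Foxp2, in which a Cas9-based activator raises transcription of the cell's own gene. The study had 1 library of DNA pulled down with Foxp2 antibody (ChIP) and 1 library of input DNA taken before the pull-down, both from the activated cells. No cells without the activation plasmid were part of the series. Foxp2 activation is thus shared by everything described here, and no change with Foxp2 level can be read from it. There was no replicate of the ChIP, peaks of 1 library are not replicates of a condition, and no test was made. Depth of either library is not known from the peak list.

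Foxp2 is a forkhead transcription factor, best known from the development of brain circuits and of the lung, and it acts mainly as a repressor. Many transcription factors bind distal enhancers and silencers, short regulatory elements that can lie far from the gene they act on and reach it through looping of the chromatin. The flanking genes named below mark where a peak lies. A distal element need not act on its nearest gene, and no expression was measured here.

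The strongest distal peak had a fold of 15.1 over input (95% counting interval 11.6 to 19.4). Fold, as deposited by the authors, sets the ChIP pileup at the summit against a background from input. Its interval covers the counting error of the pileup of 61 reads only. At this peak the background was 3.09 scaled reads, the lowest value found. It was shared by 408 of the 944 peaks and so need not be a local measure. The peak (chromosome 10, 68354796 to 68355171, mm10) lay 75.6 kb from the start of Arid5b, a chromatin-associated DNA-binding protein gene, and 76.0 kb from Cabcoco1, almost midway between them. It ranked 12th by fold among all 944 peaks, so all 11 higher folds were at peaks inside or within 10 kb of a gene.

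Among the distal peaks, 18 had a fold of at least 10 (7.89%), beside 89 of all 944 peaks (9.43%). At a limit of 5 the counts were 117 distal peaks (51.3%) and 55.2% of all peaks. The median fold was 5.04 in the distal peaks (quartiles 4.15 and 6.82, range 2.84 to 15.1) and 5.23 in the other 716 (quartiles 4.28 and 7.17, range 2.84 to 38.8). The distal peaks thus covered nearly the same range up to their upper quartile and lacked the few very high folds. Their median pileup was 23 reads (range 13 to 79), against 24 (range 13 to 158) elsewhere.

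The input background at the summit sat at its lowest value, 3.09 scaled reads, in 88 of the distal peaks (38.6%, Wilson interval 32.5 to 45.1) and in 320 of the others (44.7%, 41.1 to 48.4). The highest input background at a distal peak was 7.57 scaled reads, below the maximum of 23.9 at other peaks. Its part in the folds was not tested.

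Width differed little between distal and other peaks. The median width was 277.5 bp (quartiles 219 and 369, range 183 to 1075) in the 228 and 263 bp (range 183 to 1029) in the 716. Peaks over 500 bp wide made up 8.77% of the distal (20 peaks) and 6.98% of the others (50 peaks). Summits lay at a median of 47.5% of the width from the left edge, beside 47.1% in the others. Their positions were spread widely within the distal peaks (quartiles 27.6% and 69.8%). Wider distal peaks tended to have larger folds (Spearman rho = 0.24 over 228 peaks, a description, since both come from the same pileup in 1 library).

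The 5 widest distal peaks had folds from 4.15 to 11.7. The widest, 1075 bp, lay 163.7 kb from the start of Sema3d, a secreted guidance protein gene, and had a fold of only 4.15 over an input background of 7.19. The next, 990 bp, lay in the large gap between Nmbr, which encodes the neuromedin B receptor, and Cited2, a coactivator gene, with a fold of 11.7. A peak of 944 bp with a fold of 5.08 lay 114.3 kb from Foxa2, a forkhead gene of endoderm development. Peaks of 881 bp (fold 7.82) and 851 bp (fold 7.77) lay between Klf6 and Pitrm1 and between Fermt1 and Bmp2. Klf6 is a zinc finger factor gene that responds to injury, and Bmp2 encodes a growth factor of the TGF-beta superfamily.

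At the edge of the class, the 3 peaks just inside the limit lay 10146, 10161 and 10218 bp from a gene boundary, with folds of 8.997, 7.94 and 6.13. The 3 just outside lay at 9684, 9917 and 9954 bp, with folds of 4.64, 4.64 and 2.92, all below those of the 3 inside. A peak on each side belonged to the same place, as both flanked the predicted gene Gm46617 on chromosome 18 (35106883 to 35107242 inside the class and 35107569 to 35107764 outside). Over all 197 peaks outside genes but within 10 kb of one, the median fold was 5.13, beside 5.04 in the distal peaks.

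After the peak at Arid5b, large distal folds were found at genes of varied function. A fold of 14.1 (10.8 to 18.0) was found on chromosome 5 (33964341 to 33964698), 28.1 kb from the start of Nelfa, a subunit gene of the negative elongation factor that pauses RNA polymerase. On chromosome 17 (42939607 to 42939929) a fold of 13.6 (10.5 to 17.3) lay between the starts of Cd2ap, an adaptor gene of the kidney's filtration barrier, at 63.0 kb, and Tnfrsf21, a death receptor gene, at 76.9 kb. The intervals of these peaks overlap, so their order was not resolved.

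Other peaks among the 20 largest folds flanked growth control and signalling genes. The peak with the highest pileup of the class, 79 reads, lay at 538.8 kb from Myc, the growth-promoting transcription factor gene, with a fold of 11.98 (9.51 to 14.9, chromosome 15, 61446164 to 61446823). Creb5, a CREB-family factor gene, had a peak of 11.4 at 22.6 kb from its end, and Bmp4, a morphogen gene of kidney and lung branching, had one of 11.0 at 386.7 kb. Stc2, a secreted glycoprotein gene, had one of 10.6 at 133.9 kb. Sema3e, a guidance protein gene, had one of 10.4 at 32.3 kb from its start, and Gnai1, a G protein subunit gene, one of 10.3 at 14.4 kb from its end. Ptbp1, a splicing regulator gene, had one of 10.7 at 13.3 kb from its start, with the spindle gene Misp on the other side at 10.7 kb. The flanks on the other side of these peaks were A1bg for Myc, Tril for Creb5, Ddhd1 for Bmp4, Asb3 for Stc2, Gm6650 for Sema3e and Gnat3 for Gnai1. Of these, A1bg (525.2 kb), Ddhd1 (338.7 kb) and Asb3 (122.8 kb) lay nearer to the peak than Myc, Bmp4 and Stc2.

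Further peaks of the 20 had folds between 9.40 and 10.5. They lay between Ccdc34 and Bbox1, an enzyme gene of carnitine synthesis (10.5), Tmem26 and Rhobtb1 (10.4), Phlda1 and Krr1 (10.0), Dusp10 and Hlx (10.0), Il7 and Stmn2 (10.0), Slc22a23 and Pxdc1 (9.68), and Nudt12 and Efna5 (9.40). Peaks sharing the fold of 10.0 had the same pileup of 40 reads over the lowest background. Of the 20, 6 lay on chromosome 10 and 3 on chromosome 5.

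Distal peaks were most dense on the side of distal sequence that is nearer to coding genes. Distal sequence means all bases that meet the position rule, 940.6 Mb or 36.0% of the annotated span, and its distances were computed from the gene table base by base. The nearest coding gene stood at a median of 83.0 kb from the 228 summits (quartiles 28.5 and 216.6, range 10.2 to 1674), against 160.9 kb over all distal bases in gaps between coding genes. Within 100 kb of a coding gene lay 127 peaks (55.7%) and 38.6% of the bases. Beyond 250 kb lay 50 peaks (21.9%, Wilson interval 17.0 to 27.7) and 38.6% of the bases.

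As a density, there were 0.421 peaks per Mb at 10 to 25 kb from a coding gene (95% Poisson interval 0.312 to 0.557, 49 peaks). There were 0.279 at 25 to 50 kb (0.190 to 0.396, 31 peaks), 0.357 at 50 to 100 kb (0.262 to 0.475, 47 peaks) and 0.241 at 100 to 250 kb (0.179 to 0.317, 51 peaks). Farther out there were 0.163 at 250 to 500 kb (0.107 to 0.237, 27 peaks) and 0.119 beyond 500 kb (0.0754 to 0.179, 23 peaks). The intervals of the nearest and the farthest class do not overlap, although peaks in clusters are not independent, which makes such intervals too narrow. The share of summits with input background above its lowest value ranged from 56.5% beyond 500 kb to 71.0% at 25 to 50 kb. Unassembled and repetitive sequence, where reads cannot be placed, was not taken out of the bases, and its part was not tested.

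**Figure D1:**
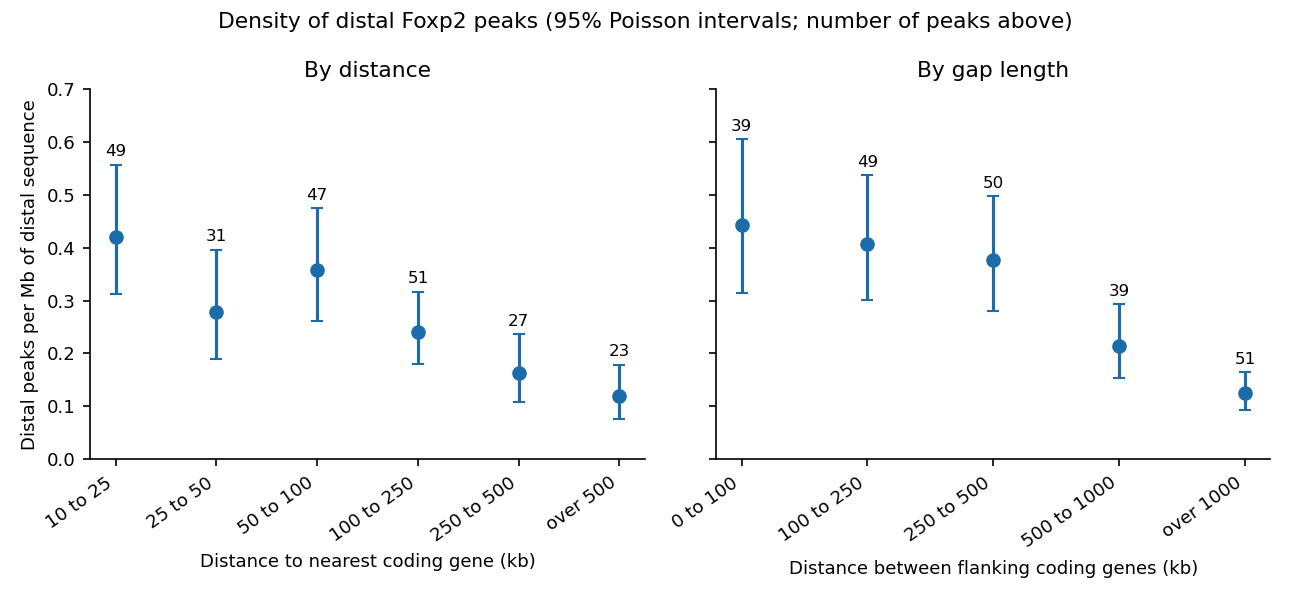
Distal Foxp2 peaks per Mb of distal sequence by distance from the summit to the nearest coding gene (left) and by distance between the 2 flanking coding genes (right); points are densities, bars exact 95% Poisson intervals, and the number above each bar is the count of peaks. Density was 0.421 per Mb at 10 to 25 kb and 0.119 beyond 500 kb, and 0.443 in gaps up to 100 kb and 0.125 in gaps over 1000 kb.

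Beyond 250 kb, the share of peaks stayed below the share of bases in 3 settings chosen after the data were seen. Weighting the bases of each chromosome by its number of distal peaks gave 39.5% of bases beyond 250 kb. Without chromosome X, 22.1% of peaks and 39.3% of bases lay beyond 250 kb. With distal summits within 50 kb of each other counted once, 21.0% of 200 places lay there.

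The length of the gap between the flanking coding genes showed the same pattern. It is not a separate result, as gap length limits the distance to a coding gene for the same peaks and bases. Gaps up to 100 kb held 39 peaks at 0.443 per Mb of distal sequence (0.315 to 0.605), and gaps over 1000 kb held 51 at 0.125 (0.0932 to 0.165). The class from 250 to 500 kb, at 0.377 (0.280 to 0.498), was close to the shorter ones, and 500 to 1000 kb, at 0.215 (0.153 to 0.293), lay between. Gaps over 1000 kb make up 43.8% of the distal bases and held 22.4% of the peaks. The median gap around a distal peak was 363.1 kb (range 22.4 to 3820).

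Fold did not follow distance. The median fold was 5.01 at 10 to 25 kb and 5.13 beyond 500 kb, and stayed between 4.79 and 5.13 in all 6 distance classes. Folds of at least 10 occurred in each class, with 5 at 10 to 25 kb and 2 beyond 500 kb. Spearman rho between distance and fold was -0.01 over the 228 peaks of this library, given as a description.

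**Figure D2:**
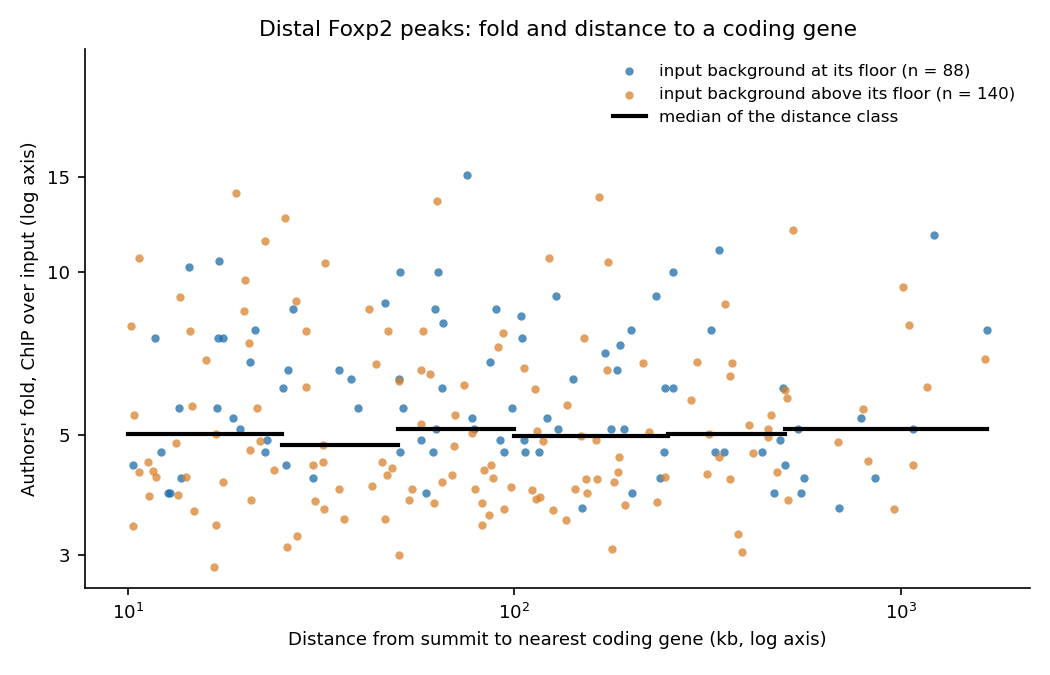
Authors' fold of each of the 228 distal peaks against the distance from its summit to the nearest coding gene (both axes logarithmic); blue points have the lowest input background (88 peaks), orange points a higher one (140 peaks), and black lines are medians of the 6 distance classes. The medians stay between 4.79 and 5.13 from the nearest to the farthest class.

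The 10 most remote peaks lay in gene deserts, 855.0 to 1674 kb from a coding gene. The farthest (chromosome 8, 6779193 to 6779480, fold 7.82) lay between Slc10a2, the ileal bile acid transporter gene, at 1674 kb and Efnb2, an ephrin ligand gene, at 1838 kb, and it was 222.5 kb from any annotated gene. Another lay between Dsel and the neuronal adhesion gene Cntnap5a (fold 6.92). A pair lay between Nmbr and Cited2 (folds 11.7 and 6.13). Single peaks lay between Celf2 and Gata3, a factor gene of the collecting system (4.39), between Hace1 and the glutamate receptor gene Grik2 (5.13), before Flrt2, an adhesion gene (7.98), and between the cadherin genes Cdh6 and Cdh9 (4.15). A pair lay between Nudt12 and Efna5 (9.40 and 3.65). Their folds ranged from 3.65 to 11.7, the span of most of the class.

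At the other end, the 10 peaks nearest to a coding gene stood 10.2 to 11.7 kb from it and had folds from 3.39 to 10.7. Their nearest coding genes were Gm46617, Timp2, an inhibitor gene of matrix metalloproteases, Sh3rf1, Olfr461, Slc5a4b, Misp, Cyp2d40, Sftpb, Rb1cc1, an autophagy gene, and Copb1, a vesicle coat gene. On the other side they were flanked by Hspa9, Lgals3bp, Cbr4, Prss37, Slc5a4a, Ptbp1, Cyp2d34, Atoh8, Alkal1 and Rras2. The only fold above 8 among them was the 10.7 between Misp and Ptbp1.

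The boundary that faced the peak was a gene start at a share close to that over distal sequence at large. Strand was known for the nearer coding gene of 176 peaks, and 93 of them faced its start (52.8%, Wilson interval 45.5 to 60.1), beside 52.6% of distal bases. Both flanking genes pointed their starts at the peak in 40 of 150 cases with both strands known (26.7%, beside 25.7% of bases), and both ends did so in 36 (24.0%, beside 21.8%).

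By kind, the nearest gene was a long noncoding RNA in 85 peaks (37.3%, Wilson interval 31.3 to 43.7; 29.1% of distal bases). It was a protein-coding gene in 68 (29.8%, 24.3 to 36.1; 24.4% of bases) and a pseudogene in 61 (26.8%, 21.4 to 32.9; 36.7% of bases). The remaining 14 were nearest to other kinds. The interval of the peaks lies above the share of the bases for long noncoding RNAs and below it for pseudogenes, differences with no test here. The distance to the nearest gene of any kind had a median of 30.1 kb (range 10.1 to 222.5).

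Distal peaks occurred in groups about as often as peaks in general. Another summit of any class lay within 50 kb of 59 distal peaks (25.9%, Wilson interval 20.6 to 31.9), beside 219 of all 944 peaks (23.2%). For the other 716 the share was 22.3% (19.4 to 25.5). The partner was mostly distal as well, for 52 of the 228. Joining distal summits up to 50 kb apart left 200 places, of which 176 held 1 peak, 20 held 2 and 4 held 3.

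Neighbouring distal summits within 50 kb formed 28 pairs at a median distance of 13.3 kb, and 4 pairs were under 1 kb apart. The closest pair, 693 bp apart, lay between Il3ra and Slc4a7, a bicarbonate transporter gene, with folds of 4.76 and 4.22. A pair 749 bp apart lay between Dusp10 and Hlx (7.82 and 3.91), and a pair 950 bp apart between Lama2 and Ptprk (7.28 and 8.55). The summit of 13.6 between Cd2ap and Tnfrsf21 had a second peak of 3.73 only 964 bp away, over an input background of 7.57, the highest of the class. In 2 of the 28 pairs the counting intervals of the folds did not overlap.

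Gaps between coding genes held the peaks unevenly. Of 7530 gaps with distal sequence, 183 (2.43%) held a distal peak: 152 held 1, 21 held 2, 8 held 3, 1 held 4 and 1 held 6. The 31 gaps with 2 or more peaks thus contained 76 of the 228.

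The gap with 6 distal peaks lay on chromosome 1 between Dusp10, a phosphatase gene that turns off stress-activated MAP kinases, and Hlx, a homeobox gene of gut and liver development. It spanned 651.5 kb, and all peaks called in it were distal. From the Dusp10 side, the summits lay at 65.1, 200.5, 201.3, 214.6, 588.0 and 600.1 kb, with folds of 6.11, 7.82, 3.91, 6.79, 10.0 and 5.62. They formed a central group of 3 within 14.1 kb (184276048 to 184290393), a pair nearer Hlx and a single peak nearer Dusp10. The largest fold stood 63.5 kb from Hlx. Both genes faced the gap with their ends.

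Myc had 6 distal peaks as well, 3 on each side. All 6 lay over a raised input background, from 4.72 to 7.19 scaled reads. The median over all distal peaks was 3.41 and the lowest value 3.09. The part of this background in the peaks at Myc was not tested. Between A1bg and Myc, the peak of 11.98 stood 538.8 kb from Myc, and 2 of 4.95 and 5.14, 1411 bp apart, stood 453.2 and 451.8 kb away. On the far side, toward Gsdmc, a pore-forming gasdermin gene, folds of 6.82, 4.54 and 3.78 stood 296.8, 338.1 and 510.7 kb from Myc. This gap held 3 more peaks that did not qualify as distal. The noncoding gene Pvt1 was the nearest gene to the 2 peaks at 296.8 and 338.1 kb.

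The other gaps with 3 or more distal peaks included several axon guidance and adhesion genes. Efna5, an ephrin ligand gene, had 4 peaks at 98.2 to 1013 kb, with folds of 4.01, 4.23, 3.65 and 9.40 in order from the gene. Slit2, a secreted guidance gene that also shapes the ureteric bud, had 3 within 30.5 kb, at 478.2 to 508.7 kb from its start, with folds of 4.26, 6.06 and 5.86, and Lcorl lay on the other side. Nrp1, a semaphorin and VEGF coreceptor gene, had 3 at 193.5 to 385.3 kb from its start with folds of 3.71, 4.17 and 6.42, in a gap shared with Pard3, a cell polarity gene.

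Matrix, signalling and other genes flanked the rest of these gaps. Between the starts of Lama2, a laminin gene, and Ptprk, a receptor phosphatase gene of cell contacts, 3 peaks lay within 17.1 kb, 89.6 to 106.6 kb from Ptprk, with folds of 8.55, 7.28 and 4.64. Adamts5, an aggrecanase gene, and N6amt1 enclosed folds of 4.88, 4.40 and 5.80. Khdrbs3 and Fam135b enclosed 3.28, 4.48 and 5.58. The shortest of these gaps, 129.3 kb between Luc7l and Neurl1b next to the alpha-globin pseudogene Hba-ps4, held folds of 3.91, 4.64 and 3.49 within 24.0 kb.

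**Figure D3:**
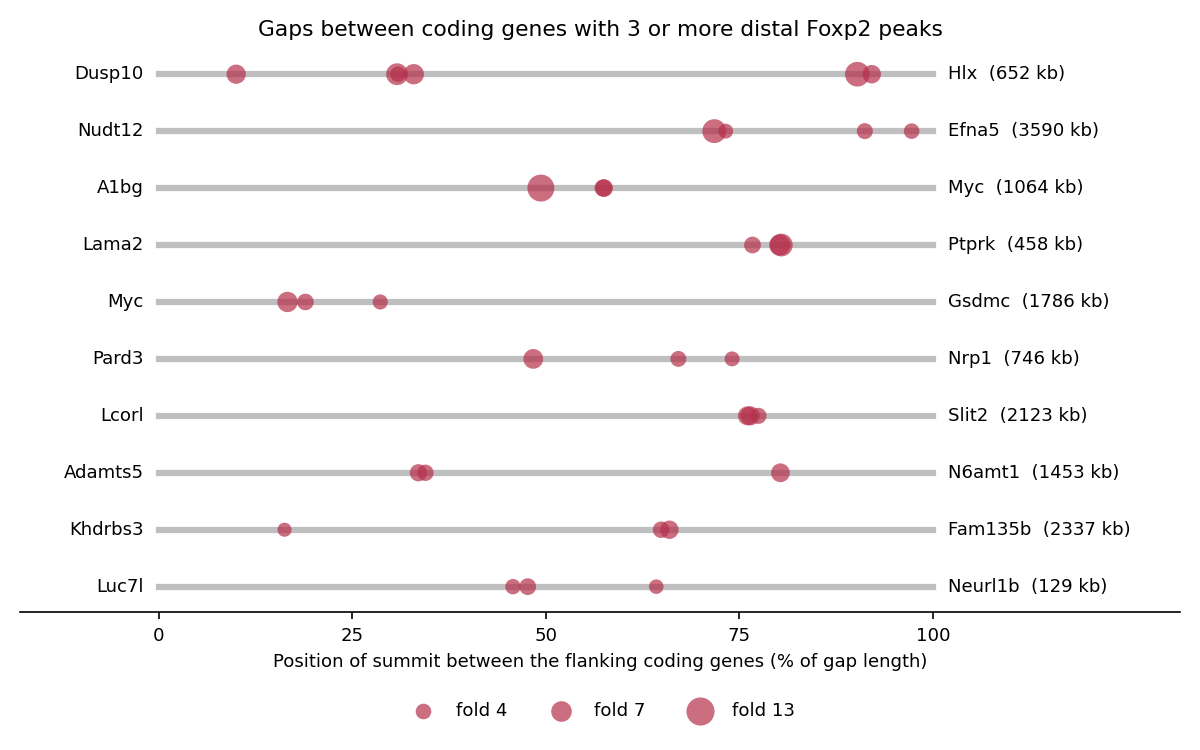
Positions of the distal summits in the 10 gaps between coding genes that held 3 or more of them, as percent of the gap from the left coding gene to the right one, with the length of each gap in parentheses; the area of a point is proportional to the authors' fold. The Dusp10 to Hlx gap holds 6 summits, the 3 summits next to Slit2 span 30.5 kb and the 3 next to Ptprk 17.1 kb.

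Of the 21 gaps with 2 distal peaks, the 15 with the largest folds reached from 13.6 (Cd2ap and Tnfrsf21) down to 4.90 (Akr1e1 and Klf6). Those not yet named were Gpat3 and Nkx6-1 (8.75), Rcl1 and Jak2, a cytokine-signalling kinase gene (8.57), Ptger4 and Dab2, an endocytic adaptor gene of the proximal tubule (8.55), Gm52259 and Cadm2 (6.11), Aldh8a1 and Sgk1, a kinase gene of sodium transport (5.62), Tbc1d1 and Gm38457 (5.05), and Ccdc71l and Nampt, an enzyme gene of NAD synthesis (5.03). The summits nearest to these genes stood at 20.8 kb for Dab2, 57.5 kb for Jak2 and 92.0 kb for Sgk1.

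Runs of 3 or more summits of any class within 50 kb that held a distal peak numbered 7. In 4 of them all 3 members were distal, namely the groups at Dusp10 and Hlx, Lcorl and Slit2, Lama2 and Ptprk, and Luc7l and Neurl1b. The run at Sema3e on chromosome 5 had 1 distal member (fold 10.4), the run at Slc22a23 and Pxdc1 on chromosome 13 had 2 (9.68 and 6.11), and the run between Asap1 and Adcy8 on chromosome 15 had 1 (3.48).

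Distal density differed widely between chromosomes. It was highest on chromosome 17 at 0.600 peaks per Mb of distal sequence (0.361 to 0.937, 19 peaks), chromosome 10 at 0.597 (0.390 to 0.875, 26 peaks), chromosome 5 at 0.542 (0.360 to 0.783, 28 peaks), chromosome 19 at 0.518 (0.223 to 1.02, 8 peaks) and chromosome 15 at 0.500 (0.306 to 0.773, 20 peaks). It was lowest on chromosome X at 0.0230 (0.00279 to 0.0832, 2 peaks) and chromosome 9 at 0.0283 (0.000718 to 0.158, 1 peak), against 0.242 (0.212 to 0.276) on all 20. Chromosome X holds 9.23% of distal sequence and 0.877% of distal peaks.

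The other peaks had a similar but not identical order of chromosomes, with the highest density on chromosome 19 (0.912). Spearman rho between distal density and the density of the other 716 peaks in the rest of the sequence was 0.87 (Pearson r = 0.86) over 20 chromosomes, which share the same library and input. Distal density was lower than the density elsewhere on every one of the 20. The gap was large on chromosome 11 (0.229 against 0.632) and close to nil on chromosome 14 (0.192 against 0.193).

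Input background moved with chromosome too. It stood above its lowest value in 92.9% of distal peaks on chromosome 5 and 89.5% on chromosome 17, against 46.2% on chromosome 10 and none of the 4 distal peaks on chromosome 4, the 5 on chromosome 7 or the 2 on chromosome X. Over the 228 it was 61.4%. Its part in the differences between chromosomes was not tested.

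**Figure D4:**
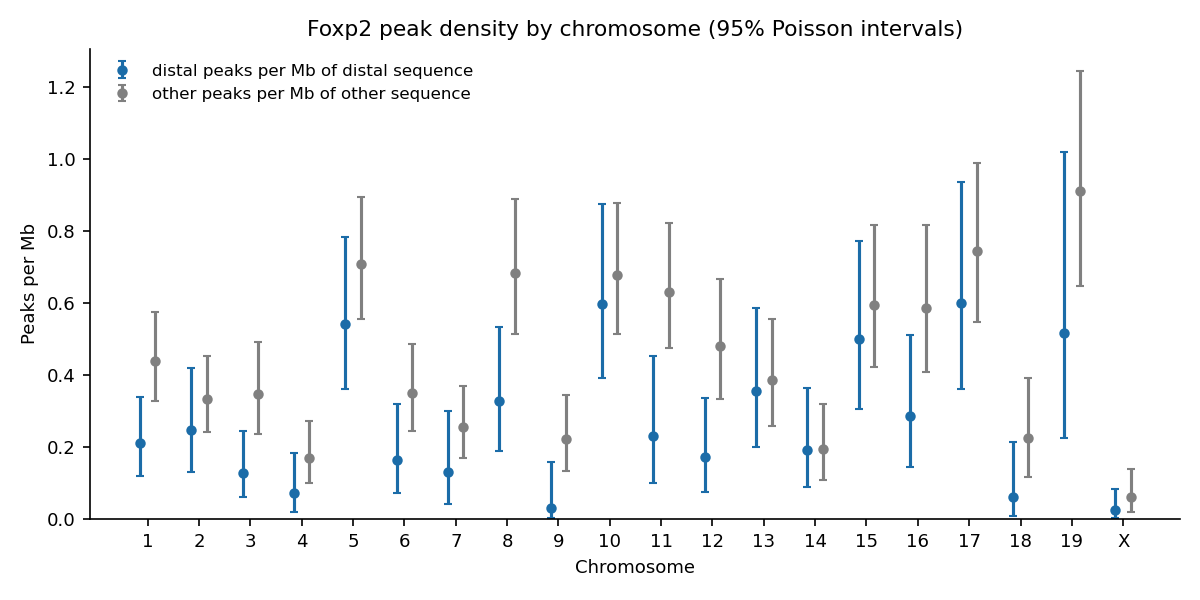
Foxp2 peaks per Mb on each chromosome, with distal peaks per Mb of distal sequence in blue and the other peaks per Mb of the remaining annotated span in grey; bars are exact 95% Poisson intervals. Both densities are low on chromosomes 4, 9, 18 and X and high on 5, 10, 17 and 19, and the distal point lies below the other on each chromosome.

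The 228 peaks had 357 different coding genes as the nearest on their left or right. That is 3.25% of the 11001 coding genes that border distal sequence and so could flank such a peak. Most stood beside 1 peak, while 66 flanked 2 or more and 22 flanked 3 or more. Genes in 18 lists were counted against that background, whether a listed gene was the nearer or the farther flank of a peak. An unlisted coding gene can lie nearer, and distances below are to the listed gene. The lists were drawn up with earlier results of these data known and share members, and a gene beside a long gap has more room to flank a peak, so the counts are descriptions. In all, 55 of the 496 bordering genes on any list flanked a distal peak (11.1%, Wilson interval 8.62 to 14.2), and 16 of the 18 lists lay above 3.25%. The gaps of these 496 genes held 76 peaks, where gaps of the same lengths would hold 43.6. A list is therefore better read beside the 11.1% of all listed genes than beside all coding genes.

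Transcription factor genes made up the longest of the lists, with 75 members. Outside the homeobox list, 16 of 70 bordering factor genes flanked a distal peak (22.9%, Wilson interval 14.6 to 34.0), with 19 peaks. At the density of all gaps of the same length classes, their gaps would hold 6.80. The median fold of the 19 was 5.13, close to the 5.04 of all distal peaks, and 9 of them had an input background above its lowest value. The nearest were Sox4, a factor gene of progenitor cells, at 17.0 kb (fold 5.62), Tead1, the partner of YAP, at 24.3 kb (4.88), Tcf7l2, a Wnt effector, at 29.0 kb (6.13, with a second of 8.30 at 104.2 kb) and Maf at 58.0 kb (7.81).

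The same list held the largest distal fold, 15.1 at Arid5b. Klf6 flanked 3 peaks, the largest 7.82 at 323.5 kb, and without Klf6 the other members flanked 16. Gata3 flanked 2 (3.66 at 692.4 kb and 4.39 at 1076 kb). Runx1 (4.08 at 180.7 kb), Ets2 (5.62 at 237.3 kb), Nr2f2 (4.64 at 349.3 kb), Gata6 (5.67 at 411.1 kb), Tbx3 (4.63 at 491.5 kb) and Klf4 (9.04 at 974.5 kb) flanked 1 each. Psmg1 lay nearer to the peak of Ets2, at 21.6 kb, and Rbbp8 to that of Gata6, at 136.5 kb. Med13l lay nearer to that of Tbx3, at 413.6 kb, and Actl7b to that of Klf4, at 233.0 kb. Runx1 and Nr2f2 were the nearer flanks of their peaks. A single peak of 3.97 lay between Klf5 and Klf12, at 143.3 and 409.4 kb. Zeb2, a repressor of epithelial genes, flanked a peak of 5.13 as far away as 3519 kb. The same peak lay 177.9 kb from Acvr2a and is counted again in the mesenchymal and TGF-beta lists.

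Immediate early genes, which are switched on within minutes by growth factors and stress, had 6 of 20 bordering members beside a distal peak (30.0%, 14.5 to 51.9) and 13 peaks. Gaps of their lengths would hold 1.28 at the density of all gaps. Myc accounted for 6 of the 13, and 7 were left without it, at 1.29 peaks per Mb of distal sequence against 1.77 (0.945 to 3.03) with it. Dusp6, a phosphatase gene that turns off ERK, flanked a peak of 6.84 at 86.6 kb from its end. Dusp5 flanked one of 5.62 at 124.9 kb and Ier3 one of 3.97 at 62.7 kb. Smndc1 lay nearer to the peak of Dusp5, at 13.6 kb, and Ddr1 to that of Ier3, at 54.2 kb. Klf4 and Klf6 belong to this list as well as to the factor list. The median fold of the 13 was 5.14, and 8 of them, including all 6 at Myc, had an input background above its lowest value.

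Among developmental homeobox and related factors, 3 of 44 flanked a peak (6.82%), among them Meis1 (5.22 at 404.9 kb) and Hoxb1 (4.45 at 45.5 kb). The homeobox list had 3 peaks where gaps of that length would hold 3.15. Of the 24 bordering forkhead genes, 3 flanked a peak (12.5%), with 4 peaks where gaps of that length would hold 1.67. Foxp1, the close relative of Foxp2, had a distal peak of 9.04 (6.40 to 12.4) at 127.8 kb from its end on chromosome 6 (98797392 to 98797655). Foxa2 had 2, of 5.08 at 114.3 kb and 7.55 at 150.9 kb from its start, and Foxq1 had 1 of 5.62 at 39.5 kb. Foxp2 itself flanked none, which cannot be read for a single gene, as gaps of the whole list would hold 1.67.

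Axon guidance and synapse genes, which often border long gaps, had 7 of 41 members beside a peak (17.1%, 8.53 to 31.3) and 17 peaks. Gaps of the lengths of the whole list would hold 9.05. Without Efna5 there were 13 peaks, at 0.236 per Mb. The density of all gaps was 0.215 per Mb at 500 to 1000 kb and 0.125 over 1000 kb. The 7 genes were Sema3d, Sema3e, Slit2, Efna5, Efnb2, Flrt2 and Nrp1. The median fold of the 17 was 4.23, below that of all distal peaks, and 15 of them had an input background above its lowest value. Its part was not tested. In cadherin, claudin and other adhesion genes, whose gaps are very long, 4 of 38 members flanked only 3 peaks where gaps of that length would hold 9.05. They were Cldn1, a tight junction gene, at 145.1 kb (6.66), Cdh6 and Cdh9, which share a peak of 4.15, and Ncam2 (5.37).

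In the TGF-beta and BMP pathway, central to kidney fibrosis, 5 of 37 bordering genes flanked a peak (13.5%, 5.91 to 28.0), with 7 peaks where gaps of that length would hold 2.34. Among ligand genes, Bmp4 flanked 3 (11.0 and 4.15 in one gap and 3.63 at 125.9 kb). Bmp2 flanked 1 of 7.77 at 559.0 kb and the activin subunit gene Inhba 1 of 4.56 at 639.1 kb. Fermt1 lay nearer to the peak of Bmp2, at 47.2 kb, and Sugct to that of Inhba, at 186.8 kb. Ddhd1 lay nearer to the peak of 11.0, at 338.7 kb. The activin receptor gene Acvr2a flanked 1 of 5.13 at 177.9 kb, the same peak as for Zeb2. The antagonist gene Nog flanked 1 of 3.65 at 113.6 kb. Without Bmp4, 4 peaks remained, at 0.419 per Mb. No TGF-beta ligand, type I or II TGF-beta receptor or Smad gene of the list flanked a distal peak. With 2.34 peaks for gaps of the whole list, this absence is too small a count to be read.

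Of 21 bordering arrest and p53 genes, Plk2, a p53-responsive kinase gene, flanked a peak (4.76%, a fold of 4.64 at 523.3 kb), in gaps that would hold 0.926 at the density of gaps of the same lengths. Of 13 bordering driver genes, Myc and Cdk1 (4.40 at 154.9 kb) did. Ank3 lay nearer to the peak of Cdk1, at 25.7 kb. Of the 7 peaks of these drivers, 1 was left without Myc, where the gaps of the whole list would hold 0.974. In the mesenchymal list, Zeb2 of 25 flanked 1 peak where 1.76 would be held, and in the matrix list, Timp2 (3.39 at 10.3 kb) and Adamts5 of 34 flanked 4 where 1.84 would be held, of which 1 was left without Adamts5.

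Kidney tubule genes had 2 of 29 bordering members beside a peak (6.90%), namely the potassium channel gene Kcnj15 (5.13 at 129.7 kb) and Spp1, which encodes osteopontin (3.97 at 35.2 kb). Gaps of their lengths would hold 1.11 peaks, beside the 2 found. Growth factors and receptors had 3 of 43 (6.98%): Egfr, the EGF receptor gene (4.64 at 193.1 kb), its ligand gene Areg (7.74 at 93.5 kb) and Fgf10 (5.13 at 351.0 kb). Sec61g lay nearer to the peak of Egfr, at 50.6 kb, and Nnt to that of Fgf10, at 191.9 kb. The growth factor list had 3 peaks where gaps of that length would hold 3.36. Wnt pathway genes had 2 of 32 (6.25%), the antagonist gene Sfrp2 (4.31 at 319.3 kb) and the receptor gene Lgr5 (3.74 at 146.7 kb). Their gaps had 2 peaks where gaps of that length would hold 1.57. Of 19 reported neural targets of Foxp2, 3 flanked a peak (15.8%): Disc1 (6.19 at 79.0 kb), Foxp1 and Sema3d. These targets had 4 peaks where gaps of that length would hold 1.57.

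Among genes of other cell types, Des, the intermediate filament gene of muscle and pericytes, was the only one of 11 bordering fibroblast and pericyte genes beside a distal peak (7.40 at 22.1 kb), in gaps that would hold 0.624. None of 11 immune and none of 12 endothelial genes flanked one, in gaps that would hold 0.181 and 0.581 at the density of all gaps, too few for a count of 0 to be read. Olfactory receptor genes, with 601 bordering members, flanked 1 distal peak (Olfr461) in 7.61 Mb of distal sequence, or 0.131 per Mb (0.00333 to 0.732). Vomeronasal receptor genes, with 317, flanked 1 (Vmn2r90) in 10.2 Mb, or 0.0981 per Mb (0.00248 to 0.547), and both intervals hold the 0.242 of all distal sequence. Zinc finger genes named Zfp had 3 of 180 (1.67%, Zfp395, Zfp462 and Zfp703) and solute carrier genes 7 of 204 (3.43%), among them Slc4a7 and Slc22a23.

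**Figure D5:**
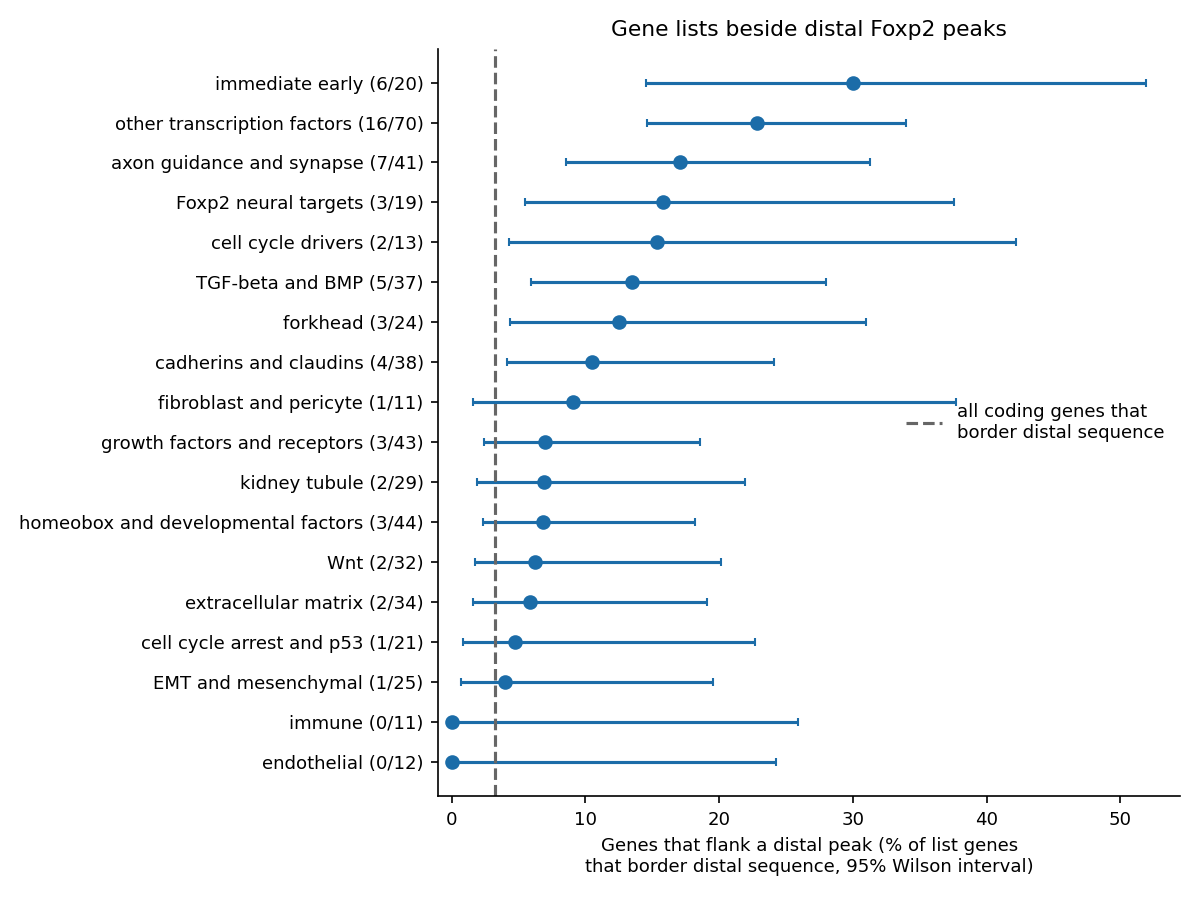
Share of the bordering coding genes of each list that flanked a distal peak, with 95% Wilson intervals and the counts in parentheses. The dashed line marks the 3.25% of all coding genes that border distal sequence. A list is better read beside the 11.1% of all listed genes, which is not drawn. Immediate early genes (30.0%) and other transcription factors (22.9%) lie farthest to the right, and immune and endothelial genes are at 0.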

How the data were processed

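The members, lists and comparisons were chosen with earlier results of these data known. MACS2, bcl2fastq and the build mm10 are named in the submitters' processing notes. Aligner, read filters and versions: not given in the sources used here. Input DNA was the control, per the labels' protocols. Per peak, the authors deposited a fold ratio, −log10 p and −log10 q. The deposited score equalled the whole part of 10 times −log10 q, capped, in 100% of peaks and was not used. The deposited start, end and summit offset give positions in other units, bases of mm10, printed 1-based. Peak numbers ran to 983, and 39 of them, 8 below the lowest number present, were not analysed here, so ranks hold within the 944.

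Pileup k and background b were recovered from fold = (k + 1) / (b + 1) and the Poisson p, to within 2.05e-05 of each −log10 p (next best whole pileup, 0.175). Summit distances used RefSeq genes of GRCm38.p6, which is mm10; strand came from the RefSeq promoter table, for 17274 of 21631 coding genes. Distal sequence runs between the first and last gene of each chromosome. Of 666 different list symbols, 664 were found. Poisson and Wilson intervals (95%) cover counting error only. Genes and peaks named are those at the ends of fold, width, distance and cluster rankings, and list members, of which a few are not reported here. Pileup recovery and distances were tested on simulated data. Peak sequences and forkhead motifs were not analysed here, as no genome was used. Python 3.11.15, pandas 2.3.3 and scipy 1.17.1 were used. No file of the input library was analysed here.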

Additional observations from a re-analysis of the deposited data

How the results depend on the processing

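Alternatives gave 53 values, of which 31 stayed within 1.5 times a count or within the 95% interval of a median, share or density. The number of distal peaks was 65 with a distance of 50 kb, 393 with protein-coding genes only and 148 with −log10 q of at least 5. It was 104 at or above the median fold and 88 with the lowest input background. By construction, the setting with protein-coding genes only adds peaks and the others remove them. The median width was 294 bp at 50 kb. The median fold was 6.16 with −log10 q of at least 5 and 5.50 with the lowest input background. The median distance to a coding gene was 113.3 kb with a distance of 20 kb. The share with another summit nearby was 10.1% within 10 kb, 32.5% within 100 kb, 16.3% at or above the median fold and 17.0% with the lowest input background. Density per Mb was 0.298 with protein-coding genes only, 0.157 with −log10 q of at least 5 and 0.0936 with the lowest input background. Flanking genes numbered 232 at 20 kb, 182 at or above the median fold and 151 with the lowest input background, and gaps with 2 or more peaks 17, 8 and 8 with −log10 q of at least 5, at or above the median fold and with the lowest input background; fewer peaks entered each. The share beyond 250 kb from a coding gene lay below that of the bases under all 7 alternatives run on it, of which those without chromosome X and with clusters counted once were chosen after seeing the data. No paired analysis was possible because the ChIP and the input are 1 library each and only the ChIP has a peak list. Library depth is unknown, and the counting intervals of folds leave out all variation other than the pileup count.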
